A study of Mus musculus with 48 samples.

Results

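The 10 genes of the inflammasome and interleukin-1 (IL-1) pathway followed here in mouse liver were Nlrp3, Nlrp12, Pycard, Casp1, Casp4, Gsdmd, Il1b, Il18, Il1rn and Il1r1. They were taken by gene name from the joined read counts of 29221 genes, and all 10 were found and passed the filter on low counts in every comparison. The 48 libraries came from the whole livers of adult mice with a floxed Pparg gene, which encodes the nuclear receptor PPARγ, in 10 groups of separate animals. Males had 4 groups of 6 libraries and females 6 groups of 4. Mice on the low fat diet (LF, females alone, labelled healthy) ate it for 34 weeks. Mice on the high fat diet (HF, both sexes, labelled liver steatosis) also ate it for 34 weeks. Mice on the HFCF diet (high in fat, cholesterol and fructose, both sexes, labelled NASH, a fatty liver disease with inflammation) had 18 weeks of HF and then 16 weeks of HFCF. On each diet, control mice received the virus AAV8-TBG-null and the mice called labelled knockouts here received AAV8-TBG-Cre, in which the hepatocyte promoter TBG drives Cre recombinase, after 16 weeks on diet. All mice, controls included, thus carried the floxed gene and received an AAV8 virus, and the design leaves Pparg intact in liver cells in which TBG is not active, such as macrophages. Males and females were separate cohorts, so sex and cohort cannot be told apart.

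Inflammasomes are protein platforms that form in the cytosol after infection or tissue damage. A sensor such as NLRP3 gathers the adaptor ASC, which is the product of Pycard, and ASC recruits caspase-1, which cuts the precursors of IL-1β and IL-18 and the pore-forming protein gasdermin D. Caspase-4 (also called caspase-11 in mice) responds to intracellular lipopolysaccharide and cuts gasdermin D as well. IL-1β acts through the receptor encoded by Il1r1, and the receptor antagonist encoded by Il1rn blocks that step. NLRP12 belongs to the NLRP3 family and is known mainly as a restraint on inflammatory signalling. In liver, macrophages are a main source of NLRP3 and IL-1β, and hepatocytes respond to IL-1.

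On GRCm38 the members lie at the following places, and each is protein coding. Nlrp3 (ENSMUSG00000032691) spans chromosome 11 from 59541568 to 59566956 on the plus strand. Nlrp12 (ENSMUSG00000078817) spans chromosome 7 from 3218784 to 3249740 on the minus strand. Pycard (ENSMUSG00000030793) spans chromosome 7 from 127989708 to 127993867 on the minus strand. Casp1 (ENSMUSG00000025888, 5298517 to 5307265) and Casp4 (ENSMUSG00000033538, 5308828 to 5336783) are neighbours on the plus strand of chromosome 9 and are paralogs, so reads shared by both could have been split or dropped in counting. Gsdmd (ENSMUSG00000022575) spans chromosome 15 from 75862327 to 75867408 on the plus strand. Il1b (ENSMUSG00000027398, 129364570 to 129371139, minus strand) and Il1rn (ENSMUSG00000026981, 24336853 to 24351494, plus strand) are both on chromosome 2. Il18 (ENSMUSG00000039217) spans chromosome 9 from 50554827 to 50581840 on the plus strand, and Il1r1 (ENSMUSG00000026072) chromosome 1 from 40225080 to 40317257 on the plus strand. The libraries were not strand specific, so reads from overlapping genes cannot be told apart by strand. Exons of Il1bos and Gm45205 overlap those of Il1b and Pycard, with at most 7 and 3 reads in a library. Exons of Nlrp12 overlap the microRNA genes Mir291a, Mir291b, Mir292, Mir292b, Mir293, Mir294 and Mir295, which had 0 reads. Reads on the shared bases could have been dropped for both overlapping genes in counting, so these numbers do not measure the effect of the overlap. Bco2 overlaps Il18 outside its exons, with up to 648 reads.

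Promoter sequence is shown for Nlrp12, the member that was lower in male labelled knockouts on both diets, and for Casp4 and Il1b, members that were higher on HFCF. The sequences are RefSeq's (GRCm38.p6), read 5′ to 3′ on the gene's strand, and hold the bases just before the gene body given above. Capitals mark matches to an NF-kB site in Casp4 and to a TATA box (TATAAA) in Il1b.
Nlrp12, chr7:3249741-3249990, minus strand: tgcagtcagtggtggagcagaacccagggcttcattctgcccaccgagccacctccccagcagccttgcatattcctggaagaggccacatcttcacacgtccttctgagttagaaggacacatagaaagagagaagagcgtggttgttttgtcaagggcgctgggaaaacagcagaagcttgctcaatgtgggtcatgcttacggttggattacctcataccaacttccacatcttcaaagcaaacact
Casp4, chr9:5308599-5308827, plus strand: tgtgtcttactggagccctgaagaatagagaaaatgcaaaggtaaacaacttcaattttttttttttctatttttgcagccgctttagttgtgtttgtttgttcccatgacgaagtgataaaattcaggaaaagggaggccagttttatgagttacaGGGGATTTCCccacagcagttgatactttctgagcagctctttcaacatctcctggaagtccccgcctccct
Il1b, chr2:129371140-129371389, minus strand: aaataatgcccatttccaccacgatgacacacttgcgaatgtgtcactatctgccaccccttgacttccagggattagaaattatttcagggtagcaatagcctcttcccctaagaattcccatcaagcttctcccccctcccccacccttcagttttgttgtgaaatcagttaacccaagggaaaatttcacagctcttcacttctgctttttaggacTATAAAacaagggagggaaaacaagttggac

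Of the 10 members, 9 had a RefSeq entry, with 14 promoter windows in all, and the 250 bases before each start were searched on both strands. The NF-kB site was present in 3 of the 14 windows (both windows of Casp4, which overlap, and 1 of Il1rn) and in 1.41% of 32851 promoters. The letters of the TATA box were present in 2 of the 14 windows (Il1b and Il18) and in 12.37% of all promoters. In Il1b they lay on the gene's strand at position -31, and in Il18 on the opposite strand at position -175. A site of PU.1, a myeloid transcription factor (GAGGAAGT), was present in 1 window, that of Pycard, and in 2.44% of all promoters. The PPAR response element as a direct repeat, without a mismatch, matched 0 of the 14 windows and 0.03% of all promoters. Its repeat unit (AGGTCA), which the element holds in 2 copies, was present in 1 window, of Il1rn, and in 14.02% of all promoters. The window of Nlrp12 held none of these letters.

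Libraries held 15338239 to 22072884 reads on genes. Values are CPM (read counts relative to library size), scaled by edgeR's TMM method, or CPM per kilobase of the gene (RPKM) where genes are compared with each other. Pparg itself was not lower in the labelled knockouts: its group mean was higher than in controls in all 5 comparisons, from 1.20-fold in HF males to 1.97-fold in HFCF females, and the rise was called in HFCF males (edgeR adjusted p = 0.000805) and HFCF females (edgeR adjusted p = 0.042, kept in 1 of 8 leave-one-out fits, each without 1 library). In HF males the log2 fold change of Pparg was 0.26, and -0.03 without labelled-knockout replicates 3, 4 and 5, whose blood markers stood apart. A count takes in reads from the floxed exons and from the rest of Pparg alike and cannot check the deletion, and the term labelled knockout is kept throughout. Hepatocyte markers (6 genes) were abundant in all libraries, and none was at 0 in any group. In the female HF labelled knockouts, replicate 3 stood apart: its 8 neutrophil markers summed to 142 CPM, against a group median of 8.47 CPM. Results without it are given beside the others for some members, not all.

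Per length, Gsdmd was the most abundant member, at a mean of 19.4 RPKM over the 48 libraries, followed by Il18 at 10.1 RPKM and Il1r1 at 7.04 RPKM. Nlrp12 (3.69 RPKM), Casp1 (2.74 RPKM), Il1rn (2.50 RPKM) and Il1b (2.21 RPKM) formed the middle of the order. The lowest RPKM values were those of Casp4 (1.04 RPKM), Nlrp3 (0.633 RPKM) and Pycard (0.519 RPKM). This order is of means over all libraries and did not hold in each group: in HFCF control males Il1r1 (8.76 RPKM) was above Il18 (7.54 RPKM), and in HFCF control females Nlrp12 (2.94 RPKM) was below Casp1, Il1b and Il1rn. Pycard was above Nlrp3 in some female groups, such as LF controls (0.548 against 0.417 RPKM). The length used for each gene covers every base in an exon of any of its transcripts. For Pycard, with 2 transcripts, it was 3800 bases, which is most of the gene's span. RPKM by this length is too low for a gene expressed mainly as a shorter transcript. The last place of Pycard therefore depends on the length used, and levels by transcript were not measured. The group ranges of neighbours in the middle overlapped: Casp1 group means ran from 1.85 to 3.52 RPKM, those of Il1rn from 1.44 to 3.42 RPKM and those of Il1b from 1.33 to 3.498 RPKM. The group means of Gsdmd, 14.9 to 23.8 RPKM, lay above those of every other member, of which the highest was 13.1 RPKM for Il18 in male HF labelled knockouts. Nlrp3, the sensor, was rare enough that a library held 15 to 122 of its reads.

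**Figure D1:**
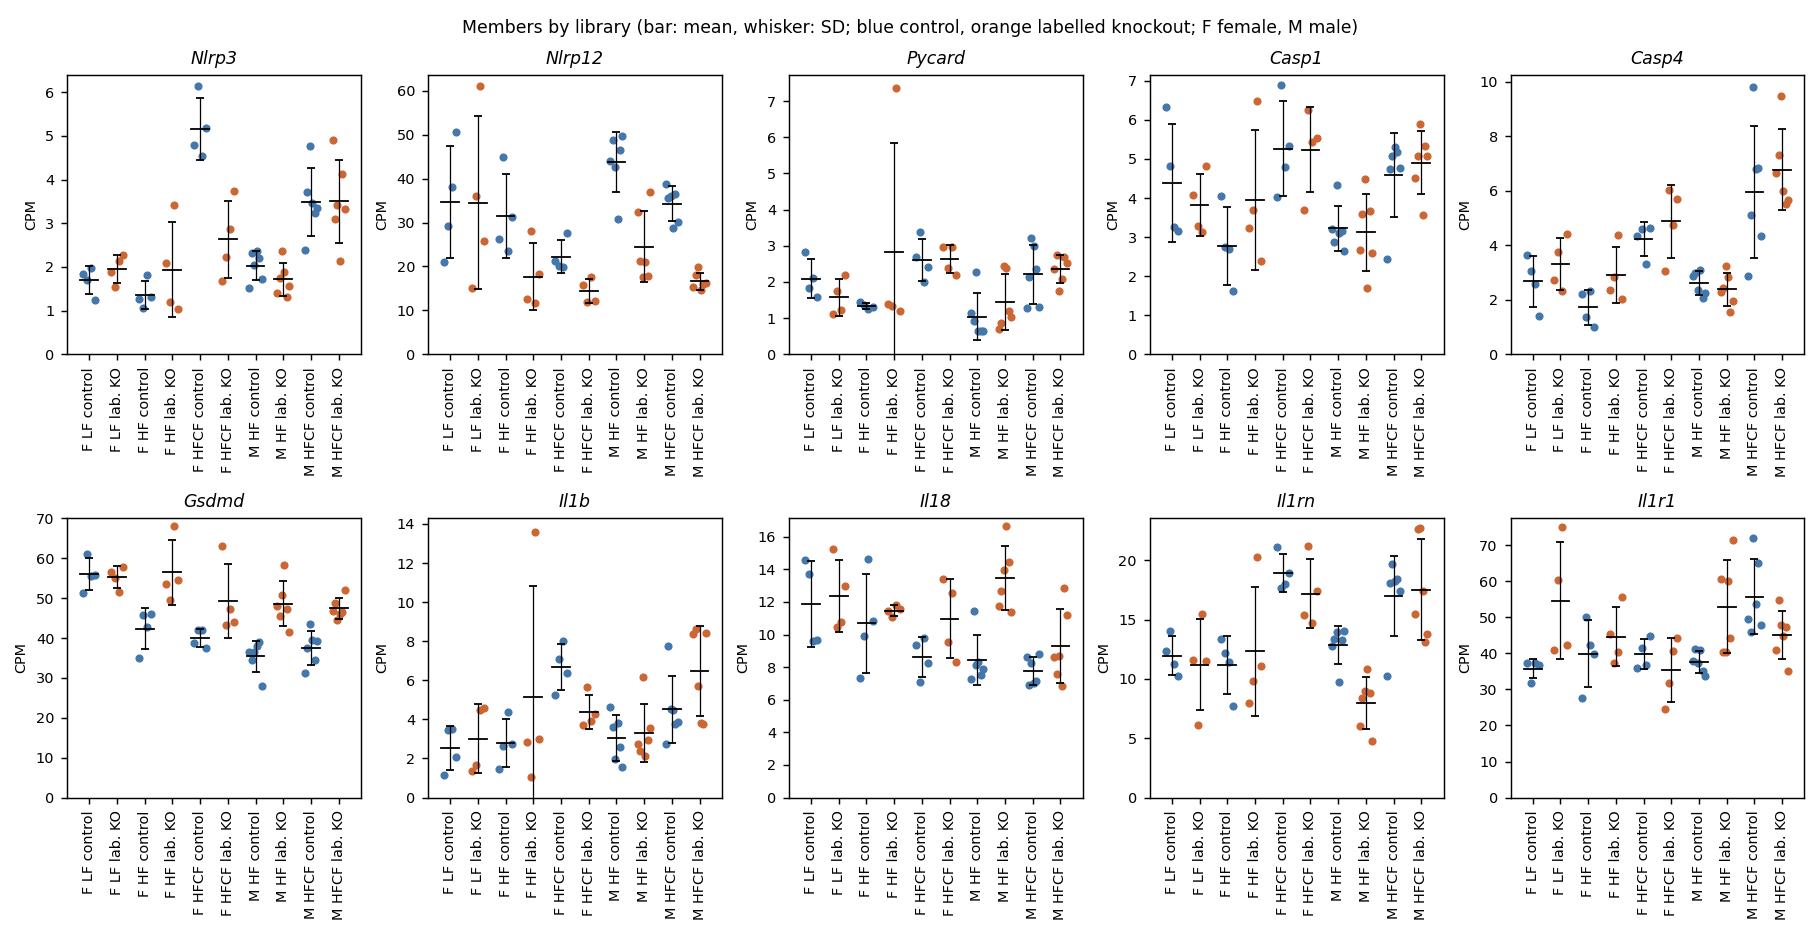
CPM of each member (vertical axis, linear from 0) in every library of the 10 groups (horizontal axis), with the group mean as a bar and the SD as a whisker, which is cut at 0. Nlrp12 is lower in labelled knockouts than in controls of HFCF males without overlap, Nlrp3 is highest in HFCF control females, and 1 HF labelled-knockout female stands at 13.6 CPM for Il1b.

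In HF males, 5 of the 10 members differed between labelled knockouts and controls, 3 higher (Gsdmd, Il18 and Il1r1) and 2 lower (Nlrp12 and Il1rn). Of all 14041 genes tested there, 18.5% were called at an edgeR adjusted p under 0.05, 8.57% higher and 9.88% lower. In HFCF males 2 members were called, Nlrp12 lower and Gsdmd higher, where 2.21% of all genes were called (0.933% higher and 1.27% lower). In these bulk samples, fewer cells of a type and less RNA per cell cannot be told apart. The comparison asks what loss of hepatocyte PPARγ does to the fatty liver. The members called were thus the sensor NLRP12, the pore former, a cytokine, the IL-1 receptor and its antagonist. The other 5 members (Nlrp3, Pycard, Casp1, Casp4 and Il1b) were called in neither male comparison.

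Nlrp12 in HF males ranged from 30.8 to 49.6 CPM in controls, with a median of 45.3 CPM, and from 17.7 to 36.9 CPM in labelled knockouts, with a median of 21.2 CPM. Only the lowest control and the highest knockouts overlapped. The means were 43.8 ± 6.88 CPM and 24.5 ± 8.10 CPM (SD, n = 6 each), a 1.79-fold fall (log2 fold change -0.84, SE 0.17, edgeR adjusted p = 0.0031). In HFCF males the controls ranged from 28.9 to 38.8 CPM (median 35.9 CPM) and the labelled knockouts from 14.6 to 19.9 CPM (median 16.2 CPM). The groups did not overlap, and the fall was 2.05-fold (log2 fold change -1.04, SE 0.09, edgeR adjusted p = 2.2e-05). Both calls held in all 12 leave-one-out fits. Here and below, the share of all genes whose groups did not overlap was not counted.

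In females Nlrp12 was not called in any of the 3 knockout comparisons. On HFCF the controls measured 21.3, 20.0, 19.8 and 27.7 CPM and the labelled knockouts 15.8, 12.0, 17.7 and 12.2 CPM. The 2 groups did not overlap, and the log2 fold change was -0.60 (SE 0.16, edgeR adjusted p = 0.46). On HF the controls measured 26.3, 45.0, 23.4 and 31.2 CPM and the labelled knockouts 12.5, 28.2, 11.6 and 18.3 CPM, with a log2 fold change of -0.83 (SE 0.29, edgeR adjusted p = 0.59). Here the groups overlapped. On LF, Nlrp12 varied widely in both groups, from 20.9 to 50.6 CPM in controls and from 15.1 to 61.2 CPM in labelled knockouts, and the log2 fold change was 0.00 (SE 0.37). Whether the LF value differs from those on the other diets was not tested.

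Gsdmd, which encodes the pore that releases IL-1β from cells, was higher in the labelled knockouts of both male comparisons. In HF males the controls ranged from 28.0 to 39.0 CPM (median 36.6 CPM) and the labelled knockouts from 41.5 to 58.4 CPM (median 47.7 CPM). The groups did not overlap, and the rise was 1.37-fold (log2 fold change 0.45, SE 0.09, edgeR adjusted p = 0.0021). In HFCF males the ranges were 31.2 to 43.4 CPM (median 38.3 CPM) and 44.4 to 52.0 CPM (median 46.6 CPM), again without overlap, and the rise was 1.27-fold (log2 fold change 0.34, SE 0.07, edgeR adjusted p = 0.025). This second call held in 7 of 12 leave-one-out fits, with edgeR adjusted p from 0.051 to 0.059 in the others (without control replicate 2 or 5, or labelled-knockout replicate 2, 5 or 6).

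In females Gsdmd was not called either. On HF the controls measured 35.0, 45.8, 42.7 and 45.9 CPM and the labelled knockouts 53.6, 49.5, 68.1 and 54.7 CPM, without overlap (log2 fold change 0.44, SE 0.13, edgeR adjusted p = 0.53). On HFCF the controls measured 38.8, 41.9, 41.9 and 37.5 CPM and the labelled knockouts 63.0, 43.2, 47.4 and 44.0 CPM, also without overlap (log2 fold change 0.33, SE 0.13, edgeR adjusted p = 0.55). On LF both groups lay between 51.3 and 61.1 CPM, with a log2 fold change of 0.00 (SE 0.09).

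The cytokine Il18 rose 1.59-fold in HF male labelled knockouts. Controls ranged from 7.24 to 11.4 CPM (median 8.01 CPM) and labelled knockouts from 11.4 to 16.7 CPM (median 13.3 CPM), so that they overlapped only at the edge (log2 fold change 0.67, SE 0.12, edgeR adjusted p = 0.0014). In HFCF males the medians were 7.69 CPM in controls and 8.65 CPM in labelled knockouts, and the log2 fold change of 0.26 (SE 0.15) did not pass (edgeR adjusted p = 0.46). The difference between the effects on the 2 diets was not called (-0.43, SE 0.20, edgeR adjusted p = 0.26). In females Il18 was not called, with log2 fold changes of 0.07 (SE 0.19) on LF, 0.12 (SE 0.18) on HF and 0.37 (SE 0.18) on HFCF. The HF value is with labelled-knockout replicate 3 included. On HF the male and female effects differed by 0.56 (SE 0.22), which was not called (edgeR adjusted p = 0.43).

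The antagonist Il1rn fell 1.62-fold in HF male labelled knockouts. Controls ranged from 9.72 to 14.02 CPM (median 13.3 CPM) and labelled knockouts from 4.74 to 10.9 CPM (median 8.61 CPM), with a log2 fold change of -0.69 (SE 0.16, edgeR adjusted p = 0.0072). In HFCF males the medians were 18.1 and 16.4 CPM and the log2 fold change 0.05 (SE 0.17, edgeR adjusted p = 0.94). The difference between the 2 male effects did not pass its own test (0.72, SE 0.25, edgeR adjusted p = 0.12). In females Il1rn was not called, with log2 fold changes of -0.08 (SE 0.24) on LF, 0.17 (SE 0.30) on HF and -0.11 (SE 0.13) on HFCF. The HF value is with labelled-knockout replicate 3 included. On HF the male and female effects differed by -0.86 (SE 0.33), which was not called (edgeR adjusted p = 0.42).

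The receptor Il1r1 rose 1.40-fold in HF male labelled knockouts, from 33.7 to 41.3 CPM in controls (median 37.6 CPM) to 40.4 to 71.4 CPM in labelled knockouts (median 52.3 CPM), with a log2 fold change of 0.48 (SE 0.13, edgeR adjusted p = 0.015). In HFCF males the controls ranged from 45.9 to 72.0 CPM (median 51.7 CPM) and the labelled knockouts from 35.1 to 54.8 CPM (median 46.0 CPM), and the log2 fold change of -0.30 (SE 0.12) was not called (edgeR adjusted p = 0.24). The difference between the effects on the 2 diets was called: -0.80 on the log2 scale (SE 0.19, edgeR adjusted p = 0.029), where 1.56% of 15096 genes were called (0.987% higher and 0.57% lower). Il1r1 was the one member called among the 6 interaction tests. The call held in 19 of 24 leave-one-out fits, and edgeR adjusted p was 0.051 to 0.059 in the other 5 (without HF control replicate 3, 5 or 6, HFCF control replicate 3 or HFCF labelled-knockout replicate 1). In LF females Il1r1 measured 37.2, 31.9, 37.4 and 36.7 CPM in controls and 40.9, 60.3, 75.1 and 42.3 CPM in labelled knockouts. These groups did not overlap, but Il1r1 was not called (log2 fold change 0.62, SE 0.18, edgeR adjusted p = 0.9996). On HF and on HFCF the female groups overlapped, and Il1r1 was not called either. The log2 fold change was 0.18 (SE 0.18, edgeR adjusted p = 0.82) on HF and -0.15 (SE 0.17, edgeR adjusted p = 0.76) on HFCF. The HF value is with labelled-knockout replicate 3 included.

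**Figure D2:**
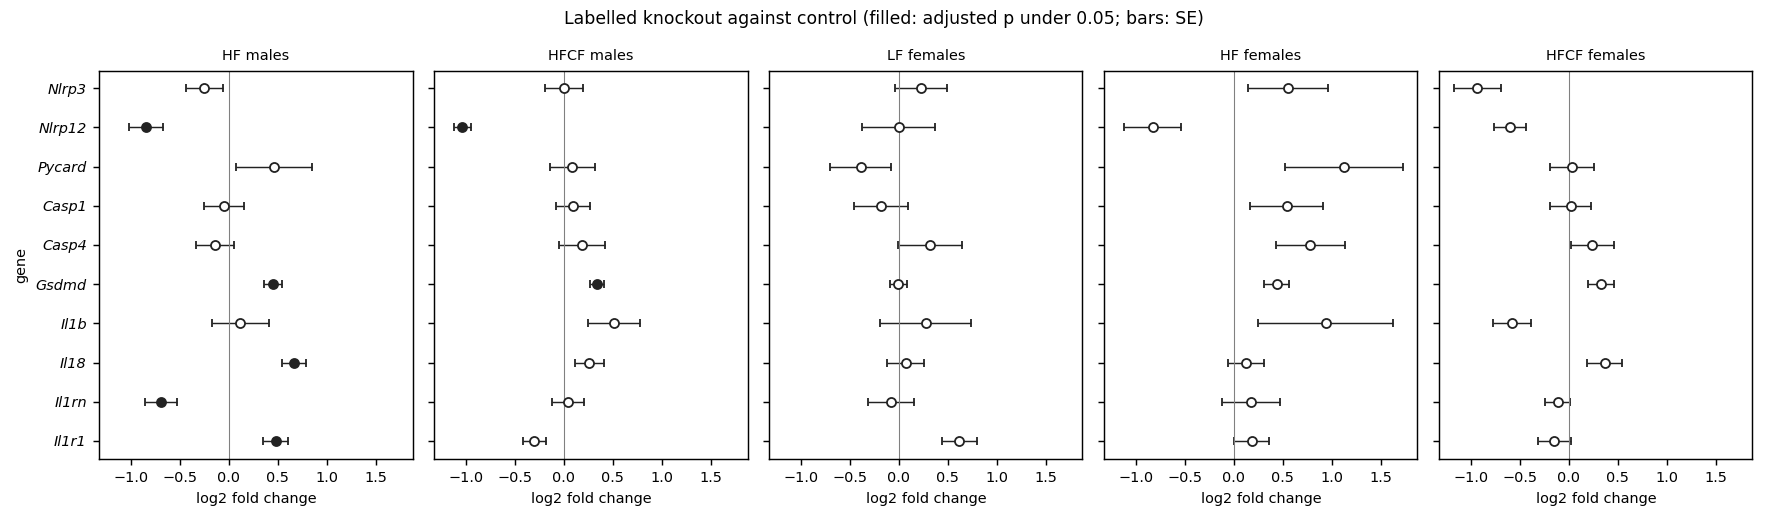
Log2 fold change of each member (rows) in labelled knockouts against controls (horizontal axis) in the 5 comparisons, with bars of 1 SE and filled points where the edgeR adjusted p was under 0.05. Nlrp12 stands left of 0 in HF males (-0.84) and HFCF males (-1.04), and no point is filled in the females.

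Among the female knockout comparisons, 0 members were called by edgeR, and 1, 2 and 4 members had an unadjusted p under 0.05 on LF, HF and HFCF. Over all genes, 0% were called on LF and on HF and 0.0534% on HFCF (0.00668% higher and 0.0467% lower), while 355 of 14285, 1135 of 14128 and 1340 of 14980 genes had an unadjusted p under 0.05. DESeq2's Wald test called 8, 64 and 81 genes in these comparisons. A single member was called by the Wald test alone: Nlrp3 on HFCF, at 4.79, 6.14, 4.53 and 5.18 CPM in controls and 1.67, 2.24, 2.87 and 3.74 CPM in labelled knockouts. The groups did not overlap, and the log2 fold change was -0.93 (SE 0.24), with adjusted p = 0.41 by edgeR and 0.041 by DESeq2. Il1b in the same animals measured 5.24, 7.10, 7.99 and 6.36 CPM in controls and 3.70, 5.67, 3.91 and 4.26 CPM in labelled knockouts, overlapping and not called (log2 fold change -0.58, SE 0.19, edgeR adjusted p = 0.54). In HFCF males Nlrp3 had a log2 fold change of 0.00 (SE 0.20). The male and female effects on HFCF differed by 0.94 on the log2 scale (SE 0.31), which was not called (edgeR adjusted p = 0.43).

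In HF females the knockout values of several members rested on replicate 3 of the labelled knockouts. Il1b measured 2.85, 1.06, 13.6 and 3.01 CPM there, and 1.44, 2.62, 4.38 and 2.73 CPM in controls. Pycard measured 1.40, 1.32, 7.36 and 1.19 CPM, and 1.44, 1.37, 1.25 and 1.30 CPM in controls. Without that library the log2 fold change of Il1b went from 0.94 to -0.26 and that of Pycard from 1.13 to -0.04, while that of Gsdmd went from 0.44 to 0.32. None was called with or without it. The same library held 43.5 CPM of the 4 dendritic cell markers (group median 6.43 CPM) and 418 CPM of the 8 macrophage markers (group median 210 CPM), next to the neutrophil sum given above. The part of these cells in its values was not tested.

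Cell type markers moved with the knockout in HF males, beside the changes of Gsdmd, Il18, Il1r1, Nlrp12 and Il1rn. Of 6 hepatocyte markers, 5 were higher in labelled knockouts (Tat by 1.20 and Alb by 0.40 on the log2 scale). Their summed level ranged from 62280 to 87964 CPM in controls and from 89403 to 106459 CPM in labelled knockouts, without overlap. Of 8 macrophage markers, 2 were lower (Trem2 at a log2 fold change of -1.09 and Cd14 at -0.90) and none was higher, while their sum had medians of 253 and 252 CPM. Of 4 stellate cell markers 2 were lower (Col1a1 at -1.23 and Dcn at -0.29), and their sum ranged from 297 to 419 CPM in controls and from 211 to 285 CPM in labelled knockouts, without overlap. The dendritic cell marker Itgax (-0.83) and the endothelial marker Lyve1 (-0.69) were lower, and Clec4f of Kupffer cells (0.56) and Cd4 of T cells (1.09) were higher. The 3 blood markers were all higher, with a summed level of 152 to 221 CPM in controls and 154 to 720 CPM in labelled knockouts.

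That rise came from 3 libraries, labelled-knockout replicates 3, 4 and 5, at 710, 537 and 720 CPM, while the other 3, at 154, 173 and 174 CPM, lay in the control range. The same 3 libraries had the lowest Nlrp12 of the group, at 17.7, 21.1 and 17.8 CPM, and the highest Il18, at 13.98, 16.7 and 14.4 CPM. A fit without them, chosen after seeing the data, kept the 5 calls. Nlrp12 went from -0.84 to -0.53 (edgeR adjusted p = 0.047), Il18 from 0.67 to 0.50 (edgeR adjusted p = 0.032) and Il1rn from -0.69 to -1.01 (edgeR adjusted p = 0.0027). In HFCF males, where Nlrp12 fell the most, 0 of the 6 hepatocyte and 0 of the 8 macrophage markers were called, and 1 of 5 Kupffer cell markers was (Clec4f, a log2 fold change of 0.60). The part of these markers in the values of the members was not tested.

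On the HFCF diet, compared with HF at the same total time on diet, Nlrp3, Pycard, Casp4, Casp1, Il1b and Il1rn were called higher in at least 2 of the 4 pairs of groups each. The share of all genes that did so was not counted, and the shares below are for single comparisons. In female controls 6 of the 10 members were higher on HFCF and 0 lower, where 30.8% of all genes tested were called (16.9% higher and 13.8% lower). In male controls 5 were higher and 1 lower, where 22.3% of all genes were called (13% higher and 9.31% lower). In male labelled knockouts 5 were higher and 2 lower, where 41.7% of all genes were called (21.6% higher and 20% lower). In female labelled knockouts 0 were called by edgeR or by DESeq2's Wald test, 1 had an unadjusted p under 0.05 (of all genes, 4419 of 14650 had), and 14.5% of all genes were called (8.44% higher and 6.01% lower). The median log2 fold change of the members was 0.86, 0.55, 0.68 and -0.10 in these 4 comparisons in turn, beside medians of -0.02, 0.01, -0.02 and -0.01 over all genes tested. The value of -0.10 is with HF labelled-knockout replicate 3 included.

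Nlrp3 showed the largest of these rises among the members in female controls. It measured 1.27, 1.06, 1.82 and 1.30 CPM on HF and 4.79, 6.14, 4.53 and 5.18 CPM on HFCF, so that the lowest HFCF library was above the highest HF library. The rise was 3.83-fold (log2 fold change 1.94, SE 0.21, edgeR adjusted p = 0.0045). In male controls Nlrp3 ranged from 1.53 to 2.36 CPM on HF (median 2.12 CPM) and from 2.38 to 4.78 CPM on HFCF (median 3.42 CPM), a 1.73-fold rise with barely separate ranges (log2 fold change 0.79, SE 0.18, edgeR adjusted p = 0.0059). In male labelled knockouts the ranges were 1.32 to 2.37 CPM and 2.13 to 4.90 CPM, a 2.04-fold rise (log2 fold change 1.03, SE 0.21, edgeR adjusted p = 0.0012). In female labelled knockouts they were 2.09, 1.19, 3.41 and 1.05 CPM on HF and 1.67, 2.24, 2.87 and 3.74 CPM on HFCF, which overlapped (log2 fold change 0.42, SE 0.41, edgeR adjusted p = 0.53). The highest HF value there, 3.41 CPM, was that of replicate 3, and the fold change is given with that library included.

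The diet effect on Nlrp3 was smaller in male than in female controls by 1.14 on the log2 scale (SE 0.27). This difference was not called by edgeR (adjusted p = 0.14), but was called by DESeq2's Wald test (adjusted p = 0.027) and by edgeR without HF female control replicate 1 (adjusted p = 0.023). The effect of the labelled knockout on Nlrp3 differed between HFCF and HF females by -1.50 (SE 0.48, edgeR adjusted p = 0.96), with HF labelled-knockout replicate 3 included.

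Pycard, the adaptor, was higher on HFCF in controls of both sexes. Female controls measured 1.44, 1.37, 1.25 and 1.30 CPM on HF and 2.69, 3.37, 1.99 and 2.40 CPM on HFCF, without overlap (log2 fold change 0.98, SE 0.23, edgeR adjusted p = 0.014). Male controls ranged from 0.632 to 2.28 CPM on HF (median 0.784 CPM) and from 1.28 to 3.21 CPM on HFCF (median 2.25 CPM), with overlap through HF replicate 3 (log2 fold change 1.10, SE 0.34, edgeR adjusted p = 0.032). The male call held in 4 of 12 leave-one-out fits and was lost without HF replicate 2, 4, 5 or 6 or HFCF replicate 2, 3, 4 or 5 (edgeR adjusted p from 0.051 to 0.079). In male labelled knockouts the log2 fold change was 0.71 (SE 0.28, edgeR adjusted p = 0.058), called without HF replicate 3 or without HF replicate 4 (edgeR adjusted p = 0.018 in each), and 1.43 (edgeR adjusted p = 0.0015) without HF replicates 3, 4 and 5, the libraries with high blood markers.

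Casp4, the lipopolysaccharide-responsive caspase, was called higher in 3 of the 4 HFCF against HF comparisons. Male controls ranged from 2.08 to 3.11 CPM on HF (median 2.62 CPM) and from 2.87 to 9.82 CPM on HFCF (median 5.95 CPM), a 2.30-fold rise (log2 fold change 1.20, SE 0.24, edgeR adjusted p = 0.0036). HFCF replicate 1 lay within the HF range. Male labelled knockouts ranged from 1.55 to 3.24 CPM and from 5.51 to 9.48 CPM, without overlap, a 2.85-fold rise (log2 fold change 1.51, SE 0.18, edgeR adjusted p = 1.9e-05). Female controls measured 2.20, 1.37, 2.32 and 0.992 CPM on HF and 4.34, 4.58, 3.31 and 4.65 CPM on HFCF, without overlap (log2 fold change 1.31, SE 0.28, edgeR adjusted p = 0.011).

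Casp1, which cuts IL-1β and IL-18, moved less. It was called in male labelled knockouts, from 1.70 to 4.49 CPM on HF (median 3.13 CPM) to 3.57 to 5.90 CPM on HFCF (median 5.06 CPM), with overlap (log2 fold change 0.66, SE 0.20, edgeR adjusted p = 0.015). In female controls it measured 4.05, 2.74, 2.69 and 1.61 CPM on HF and 4.04, 6.90, 4.79 and 5.34 CPM on HFCF (log2 fold change 0.94, SE 0.28, edgeR adjusted p = 0.034). That call was lost without HF replicate 2, 3 or 4 or HFCF replicate 2 or 5 (edgeR adjusted p from 0.069 to 0.098). In male controls the log2 fold change of 0.52 (SE 0.18) was just short of the threshold (edgeR adjusted p = 0.051), and passed without HFCF replicate 1 (edgeR adjusted p = 0.0013) or without HF replicate 3 (edgeR adjusted p = 0.028).

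Il1b was higher on HFCF in female controls, at 1.44, 2.62, 4.38 and 2.73 CPM on HF and 5.24, 7.10, 7.99 and 6.36 CPM on HFCF. The groups did not overlap, and the rise was 2.43-fold (log2 fold change 1.28, SE 0.30, edgeR adjusted p = 0.013). In male labelled knockouts it ranged from 2.14 to 6.18 CPM on HF (median 2.84 CPM) and from 3.79 to 8.62 CPM on HFCF (median 7.05 CPM), a 1.95-fold rise (log2 fold change 0.96, SE 0.28, edgeR adjusted p = 0.011). In male controls the medians were 3.11 and 4.18 CPM, and the log2 fold change of 0.58 (SE 0.27, edgeR adjusted p = 0.14) was called only without HFCF replicate 1 (edgeR adjusted p = 0.049).

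Il1rn, which opposes IL-1β, rose beside it in the same comparisons and in male controls. Female controls measured 13.4, 12.1, 11.4 and 7.69 CPM on HF and 21.1, 17.6, 18.0 and 18.9 CPM on HFCF, without overlap (log2 fold change 0.78, SE 0.16, edgeR adjusted p = 0.0098). Male labelled knockouts ranged from 4.74 to 10.9 CPM and from 13.1 to 22.7 CPM, without overlap, a 2.20-fold rise (log2 fold change 1.14, SE 0.19, edgeR adjusted p = 0.00024). In male controls the rise was 1.33-fold (log2 fold change 0.42, SE 0.14, edgeR adjusted p = 0.041). The male control call held in 2 of 12 leave-one-out fits, those without HFCF replicate 1, which stood at 10.3 CPM where the others ranged from 17.4 to 19.7 CPM, and without HF replicate 3. The male HF libraries are shared between these diet comparisons and the knockout comparisons above.

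Nlrp12 went the other way. In male controls it fell from a median of 45.3 CPM on HF to 35.9 CPM on HFCF (log2 fold change -0.34, SE 0.10, edgeR adjusted p = 0.029, kept in 7 of 12 leave-one-out fits; lost without HF replicate 2, 5 or 6 or HFCF replicate 4 or 6). In male labelled knockouts it fell from a median of 21.2 CPM to 16.2 CPM (log2 fold change -0.55, SE 0.17, edgeR adjusted p = 0.016). Il18 fell in male labelled knockouts, from 11.4 to 16.7 CPM on HF to 6.83 to 12.9 CPM on HFCF (log2 fold change -0.54, SE 0.15, edgeR adjusted p = 0.0090), and was not called in the other 3 comparisons. Without the 3 HF libraries with high blood markers that value was -0.37 and not called (edgeR adjusted p = 0.14). In the same fit Nlrp12 went to -0.86 (edgeR adjusted p = 0.00099). Il1r1 rose in male controls without overlap, from 33.7 to 41.3 CPM to 45.9 to 72.0 CPM (log2 fold change 0.57, SE 0.10, edgeR adjusted p = 0.0022). Gsdmd was called in none of the 4, with log2 fold changes of 0.09 (SE 0.09) in male controls, -0.03 (SE 0.07) in male labelled knockouts, -0.06 (SE 0.09) in female controls and -0.20 (SE 0.15) in female labelled knockouts.

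**Figure D3:**
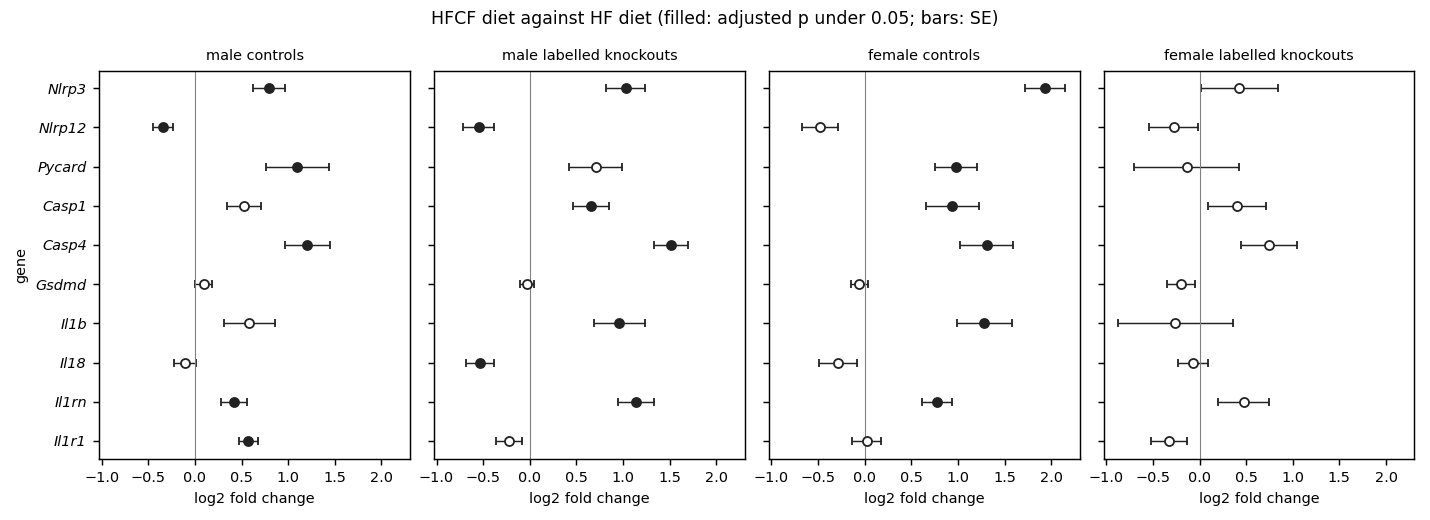
Log2 fold change of each member (rows) on the HFCF diet against the HF diet (horizontal axis) in 4 comparisons, with bars of 1 SE and filled points where the edgeR adjusted p was under 0.05. Nlrp3 stands at 1.94 in female controls, Casp4 is filled in 3 panels, and in female labelled knockouts no point is filled and the bars of Il1b and Pycard are the widest.

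In female labelled knockouts the HFCF against HF values changed when HF replicate 3 was left out. Without it, 3 members were called higher: Casp4 (log2 fold change 1.04, edgeR adjusted p = 0.032), Pycard (1.02, edgeR adjusted p = 0.030) and Il1rn (0.85, edgeR adjusted p = 0.012). With it, Pycard stood at -0.14 (SE 0.57). Il1b went from -0.26 to 0.94, without being called (edgeR adjusted p = 0.091). Casp4 was also called without HFCF replicate 1 (0.92, edgeR adjusted p = 0.032). That library stood apart as well: its hepatocyte markers summed to 111525 CPM, where the rest of its group ranged from 60472 to 78974 CPM. Its sums of dendritic cell (11.9 CPM), cholangiocyte (25.8 CPM) and stellate cell (389 CPM) markers were the lowest of the group. It also held the lowest Nlrp3 (1.67 CPM) and Il1b (3.70 CPM) and the highest Gsdmd (63.0 CPM). The part of cell makeup in its values was not tested.

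The low fat diet gives a second reference in females. HF against LF called 0 members by edgeR in controls (2 at an unadjusted p under 0.05, where 2314 of all 14216 genes were) and 0 in labelled knockouts (1 at an unadjusted p under 0.05, where 1902 of all 14214 genes were), where 0.696% (0.443% higher and 0.253% lower) and 0.155% (0.0704% higher and 0.0844% lower) of all genes were called. Gsdmd was nearest in controls: it measured 51.3, 61.1, 55.7 and 55.7 CPM on LF and 35.0, 45.8, 42.7 and 45.9 CPM on HF, without overlap (log2 fold change -0.41, SE 0.10, edgeR adjusted p = 0.093), and DESeq2's Wald test called it, the 1 member it called in these comparisons (adjusted p = 0.020).

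HFCF against LF called 5 members in control females, 3 higher and 2 lower, where 35.2% of all genes were called (18.4% higher and 16.8% lower). Nlrp3 rose from 1.84, 1.69, 1.99 and 1.25 CPM on LF to the HFCF values given above (log2 fold change 1.59, SE 0.20, edgeR adjusted p = 0.00069). Il1b rose from 1.15, 3.45, 3.49 and 2.07 CPM (log2 fold change 1.39, SE 0.30, edgeR adjusted p = 0.0065), and Il1rn from 12.3, 14.05, 11.3 and 10.2 CPM (log2 fold change 0.64, SE 0.12, edgeR adjusted p = 0.0033). In all 3 the groups did not overlap, and the share of all genes that separated in this way was not counted. Gsdmd fell to 38.8, 41.9, 41.9 and 37.5 CPM (log2 fold change -0.50, SE 0.08, edgeR adjusted p = 0.0015), also without overlap. Nlrp12 fell with overlap (log2 fold change -0.66, SE 0.23, edgeR adjusted p = 0.045), in 2 of 8 leave-one-out fits and not with DESeq2 size factors (adjusted p = 0.050).

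In labelled-knockout females HFCF against LF called 1 member, Nlrp12, where 12% of all genes were called (8.26% higher and 3.74% lower). It measured 15.1, 36.0, 61.2 and 25.8 CPM on LF and 15.8, 12.0, 17.7 and 12.2 CPM on HFCF (log2 fold change -1.24, SE 0.33, edgeR adjusted p = 0.034). The lowest LF library lay inside the HFCF range, and the call held in 3 of 8 leave-one-out fits. Without LF replicate 3, the highest, the log2 fold change was -0.81 (edgeR adjusted p = 0.082).

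Markers of several cell types moved with the HFCF diet beside Nlrp3, Pycard, Casp1, Casp4, Il1b and Il1rn. Of the 8 macrophage markers, 7 were higher on HFCF than on HF in male controls, in male labelled knockouts and in female controls, and 4 in female labelled knockouts. Their summed level ranged from 188 to 278 CPM on HF and from 273 to 632 CPM on HFCF in male controls, and from 158 to 277 CPM and from 547 to 742 CPM in female controls. Trem2, a marker of macrophages in diseased liver, had log2 fold changes of 1.89 in male and 2.39 in female controls. Cd163 went the other way in female controls (-3.21), male labelled knockouts (-2.28) and female labelled knockouts (-2.02). The 4 cholangiocyte markers were all higher in each of the 4 comparisons, with median log2 fold changes of 1.996 in female controls, 1.499 in male controls, 1.33 in male and 1.92 in female labelled knockouts. Of 4 stellate cell markers, 1, 3, 3 and 4 were higher in the same order, of 4 dendritic cell markers 2, 2, 3 and 0, and of 4 endothelial markers 3, 0, 1 and 1. Of 5 Kupffer cell markers 1, 1, 2 and 0 were higher, and 2 were lower in male labelled knockouts. The 8 T, NK or B cell markers had 2 higher in male labelled knockouts and 0 in the other 3 comparisons, and the 3 blood markers were lower in male labelled knockouts. Of the 6 hepatocyte markers, 5 were lower in female controls, 3 in male controls, 5 in male labelled knockouts and 0 in female labelled knockouts. The 8 neutrophil markers had group medians of 7.95 to 17.6 CPM in sum, with replicate 3 of the HF labelled-knockout females at 142 CPM. They were called higher on HFCF for 3 of 4 tested in male labelled knockouts, 1 of 3 in male controls, 1 of 4 in female controls and 0 of 4 in female labelled knockouts. Ly6g was at 0 in all female LF libraries and in HF control females. In HFCF male controls, replicate 1 had the lowest sums of macrophage (273 CPM) and neutrophil (4.70 CPM) markers of its group. Its dendritic cell (7.94 CPM), stellate cell (331 CPM) and cholangiocyte (16.9 CPM) sums were also the lowest, and its hepatocyte sum (65172 CPM) was the highest. The same library had the lowest Casp1 (2.44 CPM), Il1rn (10.3 CPM), Casp4 (2.87 CPM), Il1b (2.75 CPM) and Nlrp3 (2.38 CPM). The part of cell makeup in these results was not tested.

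**Figure D4:**
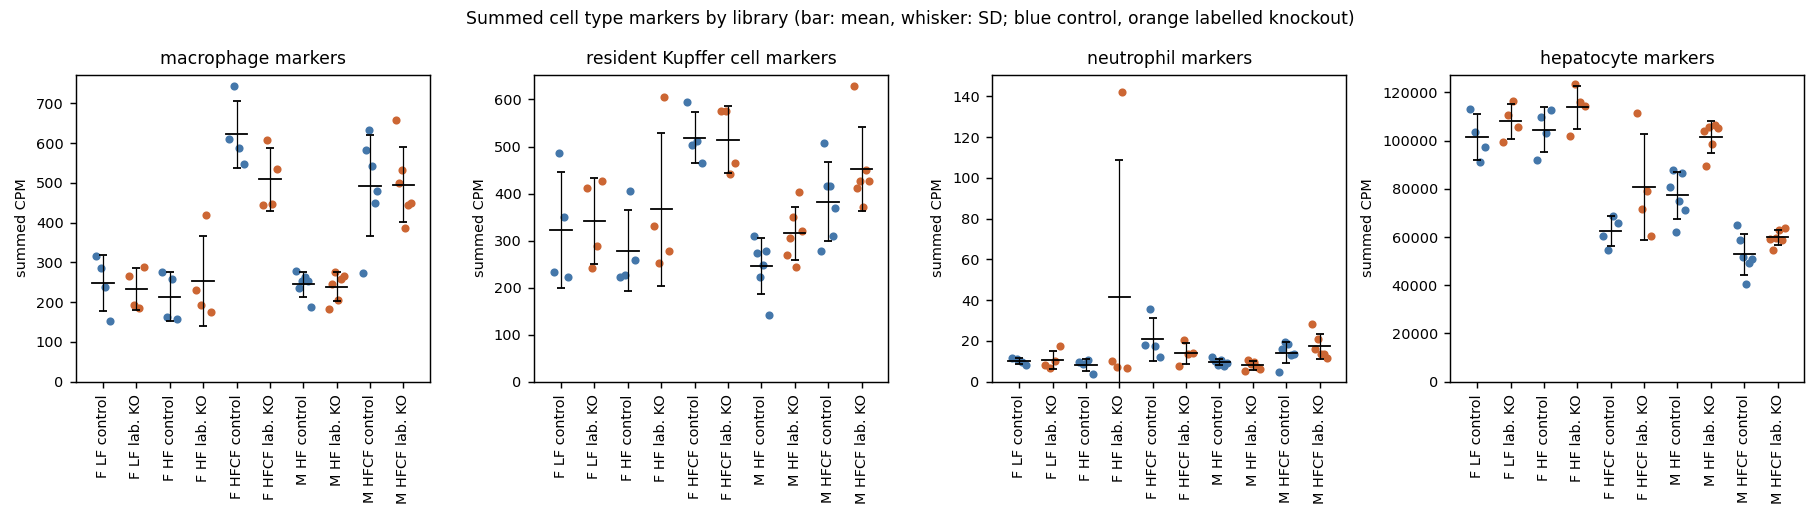
Summed CPM of the macrophage, Kupffer cell, neutrophil and hepatocyte markers (vertical axes, linear from 0) by library in the 10 groups (horizontal axis), with the mean as a bar and the SD as a whisker, which is cut at 0. Median macrophage sums are higher on HFCF than on HF in every pair of groups (511 against 253 CPM in male controls), and 1 female HF labelled-knockout library reaches 142 CPM of neutrophil markers.

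Beyond the 10 members, 65 other genes of the pathway were listed by role, and 57 of them were in the tables. In HF males 7 of 51 tested were higher in labelled knockouts and 7 lower, where 8.57% of all genes were higher and 9.88% lower. Il1rap, the partner chain of the IL-1 receptor, rose from 108 ± 15.6 to 184 ± 17.1 CPM (SD, n = 6 each, log2 fold change 0.76, SE 0.09, edgeR adjusted p = 4.0e-05), beside the rise of Il1r1. Nlrp6, another sensor, rose from 181 ± 23.4 to 254 ± 15.1 CPM (log2 fold change 0.48), and Ninj1, which ruptures the membrane after pore formation, had a log2 fold change of 0.36. Serpinb1a, a protease inhibitor, rose by 0.82 on the log2 scale. The 4 largest falls were Tnfaip3, a brake on NF-kB (-0.90), Txnip, an NLRP3-binding protein (-0.88), the NF-kB subunit gene Relb (-0.87) and Irak3, an inhibitor of receptor signalling (-0.81). None of the listed genes was called in the other 4 knockout comparisons, with 52 to 54 tested in each.

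On HFCF against HF, 20 of 54 other pathway genes were higher and 3 lower in female controls, 11 and 4 of 54 in male controls, 22 and 7 of 53 in male labelled knockouts, and 3 and 2 of 53 in female labelled knockouts. Over all genes, 16.9% were higher and 13.8% lower in female controls, 13% and 9.31% in male controls, 21.6% and 20% in male labelled knockouts, and 8.44% and 6.01% in female labelled knockouts. The median log2 fold change of the list was 0.34, 0.21, 0.17 and 0.09 in turn. By role, sensors and their partners had 8 of 21 higher and 1 lower in female controls, and 6 of 21 higher and 1 lower in male controls. In labelled knockouts they had 11 of 20 higher and 2 lower in males, and 0 of 20 higher and 1 lower in females. Among listed genes called in female controls with a mean of at least 1 CPM, Il1rl2, the receptor for IL-36, rose most (1.66). Its means were low, at 0.557 CPM on HF and 1.77 CPM on HFCF. The sensor gene Naip1 rose in female controls too (1.40). Casp12, a caspase next to Casp4 in sequence family, rose in all 4, with log2 fold changes of 1.44, 1.54, 1.63 and 1.39 in the same order. Relb was higher in female controls (1.48), male controls (0.73) and male labelled knockouts (1.30), and so was Mefv, which encodes the sensor pyrin (1.27, 1.05 and 1.42). Nlrp6 and Il1rap were lower in all 4: Nlrp6 by -1.08, -0.34, -0.65 and -0.85, and Il1rap by -1.07, -0.37, -0.89 and -0.71. Il1rap thus went from 150 ± 32.3 CPM on HF to 70.3 ± 15.05 CPM on HFCF in female controls (SD, n = 4 each), where Il1r1 had a log2 fold change of 0.02 (SE 0.16). Against LF, control females on HFCF had 18 genes higher and 5 lower of 53 (18.4% and 16.8% of all genes), among them Il33, an IL-1 family alarmin (1.29), and labelled knockouts 5 and 2 of 53 (8.26% and 3.74% of all genes).

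The genes whose levels ran most like each member across the 48 libraries were found by Pearson's r of log2(CPM + 0.5) over 12316 genes averaging 1 CPM or more. The libraries share diet, sex and genotype groups, so these values describe the set and carry no test. Nlrp12 was most like Gpd1 (r = 0.83), Gpd2 (0.80) and Ppp2ca (0.79), and Gpd1 and Gpd2 both encode glycerol-3-phosphate dehydrogenases. Nlrp3 was most like Laptm5 (0.88), Msn (0.88) and Dock2 (0.88), and Casp4 like Plekha2 (0.87) and Casp12 (0.87). Gsdmd was most like Ifitm2 (0.84), H2-Q7 (0.82) and the immunoproteasome subunit Psmb8 (0.80). Il1b was most like Adgre4 (0.80), Clec4a1 (0.79) and Pilrb2 (0.79), Il1rn like Relb (0.86), Pitpnm1 (0.85) and Cyth4 (0.84), and Casp1 like Havcr2 (0.85), Far1 (0.85) and Arhgdib (0.85). Pycard was most like Napsa (0.83), Gcnt1 (0.78) and Fcer1g (0.77), and Il18 like Sub1 (0.80), Paox (0.80) and C8g (0.79). Il1r1 had the least similar partners, with Tubgcp5 first (0.66).

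Among the 45 pairs of members, Nlrp3 and Casp4 ran most alike (r = 0.76, and 0.56 after the group means were removed), followed by Casp1 and Casp4 (0.73 and 0.62) and by Nlrp3 and Il1b (0.69 and 0.53). Nlrp12 and Pycard were the most opposed pair (-0.49, and -0.29 after the group means were removed).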

How the data were processed

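The authors deposited 11 tables that hold raw, whole-number read counts of genes in rows and libraries in columns (read counts per the file headers). The submitters' processing notes name STAR 2.6.1, HTSeq 0.6.1, DESeq2 (version 2), GRCm38 and mm10, without role or order. Replicates are separate mice per the labels, which give no batch. One LF labelled-knockout female (replicate 2) carries an animal number in its labels that differs from the one in the series text. The tables were joined by gene identifier (29221 genes, 48 libraries); 0 of 1341082 repeated values differed, a gene missing from a table was set to 0 there, and 0 read-count columns were left without a sample. Gene lengths are the deposited ones, in bases.

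Each of 13 pairs of groups was fitted alone with edgeR 4.0.16 in R 4.3.3 (TMM, filterByExpr, quasi-likelihood test, Benjamini-Hochberg over all genes tested), and 6 interactions on their 4 groups. A gene is called at an adjusted p under 0.05. SE is the absolute log2 fold change over the square root of F. In simulated counts for HF males (14041 genes), 30 of 50 genes changed 1.5-fold and 46 of 50 changed 2-fold were recovered; for LF females (14285 genes), 14 and 39 of 50 were. Alternatives were DESeq2 1.42.0 size factors and its Wald test, no filter, the replicate number as a block, and each library left out, plus, added after seeing the data, 3 HF male libraries left out together. The members and lists were chosen with earlier results of these data known. Named other pathway genes are up to 4 called in each direction per comparison, by size, with a mean of at least 1 CPM, not all of them printed. Values of Relb and Mefv in further comparisons were added after they were seen. Like genes are the top 3 per member, of which 1 is not reported here. Motifs and promoters to print were chosen after values were seen.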

Additional observations from a re-analysis of the deposited data

Results flagged for a closer look

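In 12 of the 100 sets of a member in a group, 1 library stood far from the others. Those sets were tested with Dixon's ratio of gap to range at the 95% level. That level assumes normal values, and the sets share the same 48 libraries. The 12 therefore cannot be set against a chance rate of 5%.

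Of the 12, 2 came from 1 liver, labelled-knockout replicate 3 of the HF females: Il1b at 13.6 CPM, where the other 3 ranged from 1.06 to 3.01 CPM, and Pycard at 7.36 CPM, where they ranged from 1.19 to 1.40 CPM. In HFCF male controls, replicate 1 was low for Casp1 (2.44 CPM against 4.75 to 5.32 CPM) and for Il1rn (10.3 CPM against 17.4 to 19.7 CPM), and replicate 2 was high for Il1b (7.78 CPM against 2.75 to 4.51 CPM). In HF male controls, replicate 4 was low for Nlrp12 (30.8 CPM against 42.8 to 49.6 CPM) and for Il1rn (9.72 CPM against 12.8 to 14.02 CPM). In the same group, replicate 3 was high for Pycard (2.28 CPM against 0.632 to 1.14 CPM) and for Casp1 (4.34 CPM against 2.64 to 3.21 CPM), and replicate 2 was high for Il18 (11.4 CPM against 7.24 to 8.29 CPM). In HF male labelled knockouts, replicate 3 was high for Il1b (6.18 CPM against 2.14 to 3.57 CPM). In LF control females, replicate 2 was low for Il1r1 (31.9 CPM against 36.7 to 37.4 CPM).

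The effect of the labelled knockout on Il1r1 differed between the HFCF and HF diets in males by -0.80 on the log2 scale (edgeR adjusted p = 0.029 in the interaction test). It was a rise on HF and not called on HFCF.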

How the results depend on the processing

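Of 33 calls of members, 32 were kept with DESeq2 size factors (0 gained), 33 with DESeq2's Wald test (6 gained) and 33 without the filter (1 gained). Leaving out 1 library kept 311 of 360 calls, lost 49 and gained 14, with 1 value reversed, and the sign of 121 uncalled values changed. The reversed value is Pycard in HFCF against HF labelled-knockout females, 1.02 without HF labelled-knockout replicate 3, where the leave-one-out fits ran from -0.39 to 1.02. The cause of each change below was not tested, apart from the fewer libraries that leaving one out or pairing leaves.

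The labels' replicate numbers do not mark a shared litter or batch, and in no comparison did every same-numbered pair of libraries correlate above 0.1, nor every library best with its own number. The numbers were therefore used as a replicate block only as an alternative. With the block, 23 of 32 calls were kept and 0 gained. The count of members went from 2 to 1 in HFCF males (knockout) (Gsdmd lost), from 6 to 0 in HFCF against HF control females (Nlrp3, Pycard, Casp1, Casp4, Il1b and Il1rn lost, with 3 pairs), from 6 to 5 in HFCF against HF control males (Il1rn lost) and from 5 to 4 in HFCF against LF control females (Nlrp12 lost). The count of all genes went from 324 to 165 in HFCF males (knockout) and from 4526 to 0 in HFCF against HF control females, from 8 to 0 in HFCF females (knockout), from 22 to 9 in HF against LF labelled-knockout females, from 2118 to 1180 in HFCF against HF labelled-knockout females and from 5199 to 2036 in HFCF against LF control females.

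With DESeq2's Wald test the members called went from 0 to 1 in HFCF females (knockout; Nlrp3), in HF against LF control females (Gsdmd) and in the diet by sex interaction of controls (Nlrp3). They went from 6 to 7 and from 7 to 8 in HFCF against HF control (Casp1) and labelled-knockout males (Pycard), and from 5 to 6 in HFCF against LF control females (Il18). The genes called by it, with the edgeR count after each, were 712 (324) in HFCF males, 8 (0) in LF females, 64 (0) in HF females and 81 (8) in HFCF females for the knockout, 648 (99) in control and 501 (22) in labelled-knockout females for HF against LF, and 591 (235) for knockout by diet in males. They were 46 (0) and 6 (0) for knockout by sex on HF and HFCF, and 125 (1) and 147 (2) for diet by sex in controls and labelled knockouts. Without the filter the counts were 1 (0) in HF females and 26 (8) in HFCF females for the knockout, 185 (99) and 124 (22) for HF against LF, 1 (0) for knockout by sex on HF and 18 (2) for diet by sex in labelled knockouts. Without the filter 2 members, not 1, were called in HFCF against LF labelled-knockout females. DESeq2 size factors gave 6 genes, not 2, for diet by sex in labelled knockouts.

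Leaving out 1 library gave 1 to 2 members and 185 to 1052 genes in HFCF males (knockout; the highest without control replicate 1) and 0 to 19 genes in HFCF females (knockout). HF against LF ran from 10 to 112 genes in control females and from 0 to 124 in labelled knockouts. HFCF against HF ran from 5 to 7 members and 2454 to 6530 genes in control females (highest without HF replicate 1), from 0 to 3 members and 866 to 4402 genes in labelled-knockout females (most genes without HFCF replicate 1), and from 3 to 8 members and 2217 to 5429 genes in control males (both highest without HFCF replicate 1). HFCF against LF ran from 0 to 1 members and 681 to 3587 genes in labelled-knockout females (most without HFCF replicate 1). Interactions ran from 0 to 1 members and 119 to 412 genes (knockout by diet, males), 0 to 287 and 0 to 1 genes (knockout by sex, HF and HFCF), 0 to 2 members and 0 to 1699 genes (diet by sex, controls, both highest without HF female control replicate 1) and 0 to 43 genes (diet by sex, labelled knockouts).

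Without the 3 HF labelled-knockout males with high blood markers, 12 of 13 calls of members were kept, 1 was lost (Il18, HFCF against HF) and 1 gained (Pycard, HFCF against HF). The genes called went from 235 to 126 for knockout by diet in males and from 2 to 0 for diet by sex in labelled knockouts.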
